A study of Mus musculus with 4 samples.

Results

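MAPT, Mapt and Prnp are the tau and prion protein genes measured in nuclei of mouse hippocampus: the human tau transgene, the mouse gene for tau, and the mouse gene whose promoter drives the transgene. They were taken by symbol and are 3 of the 55403 features of the count tables, which list 55401 mouse genes and 2 human genes. Their unique molecular identifiers (UMIs, each standing for 1 captured RNA molecule) were summed by cell class and library, and levels are given as CPM, the UMIs of a gene in 1000000 UMIs of the class and library.

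The 4 libraries came from frozen, pooled hippocampus processed as single nuclei with a 10x Genomics 3′ kit (v3.1). The WT library (1) was labelled wild type. The PS19 group (2 libraries, replicates 1 and 2) carried Tg(Prnp-MAPT*P301S)PS19Vle on a B6;C3 background, human 1N4R tau with the P301S change under the Prnp promoter. The TG_PS19 library (1) carried the same transgene together with SORLA-Rosa26 (SORLA TG), which overexpresses the sorting receptor SORLA from a CMV/β-actin element. The lines had been crossed and littermates used. The series title calls the mice aged, while their age in numbers, sex and number per pool are not given in the sources used here. SORL1, the human SORLA transgene, was at 65.2 CPM over all nuclei of TG_PS19 and between 0 and 0.371 CPM in the other 3 libraries.

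Tau is a microtubule-binding protein of axons that forms filamentous deposits in tauopathies, and the P301S change causes an inherited frontotemporal dementia. The prion protein is a membrane-anchored glycoprotein of neurons and glia, whose misfolded form carries prion disease. Promoter fragments of Prnp are widely used to drive transgenes in brain, and the vectors of this type carry non-coding Prnp exons on both sides of the inserted coding sequence. A transgene RNA molecule read in such a Prnp stretch would be counted under Prnp. Human tau molecules alike in sequence to mouse tau could be counted under Mapt. These cases cannot be told apart in the deposited counts. The reverse, mouse tau counted as MAPT, was not seen in WT, where Mapt was at 514.9 CPM over all nuclei and MAPT at 0.

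Prnp (ENSMUSG00000079037.9) lies on the forward strand of chromosome 2 at 131909928 to 131938429 in mouse build GRCm38, with 3 exons and 92.3% of its 28502 bases in introns. Mapt (ENSMUSG00000018411.17) lies on the forward strand of chromosome 11 at 104231390 to 104332090, with 12 exons in its longest principal transcript and 98.7% of its 100701 bases in introns (GENCODE M21). The sequence before the Prnp start is shown because it is the stretch that the transgene and the mouse gene are meant to share. It covers the 250 bases up to the annotated start at chr2:131909678-131909927, forward strand, from RefSeq on GRCm38.p6, and capitals mark matches to the GC-box letters GGGCGG on either strand.

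Prnp promoter window: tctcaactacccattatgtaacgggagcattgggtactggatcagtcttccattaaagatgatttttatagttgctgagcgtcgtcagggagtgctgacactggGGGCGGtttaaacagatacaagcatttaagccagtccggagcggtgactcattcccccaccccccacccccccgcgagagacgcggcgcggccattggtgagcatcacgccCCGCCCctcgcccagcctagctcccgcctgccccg

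The window held 2 GC-box matches, 1 on each strand, and 32.7% of the 32851 mouse promoter windows of this length held at least 1. At least 2 matches were found in 16.7% of windows. TATAAA matched 1 time on the reverse strand (12.4% of windows held a match on either strand), and CCAAT matched 2 times on the reverse strand (33.9% of windows). TGACGTCA and CAGGTG did not match, against 1.55% and 17.2% of windows. None of the matches overlapped another. The GC content was 58.8%, beside a median of 52.4% over all windows. These matches describe letters and show no bound factor.

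The deposited libraries held 4643 to 12762 barcodes and 20064025 to 48670533 UMIs each. After filters and removal of called doublets, 11858 WT, 4493 and 4774 PS19, and 9129 TG_PS19 nuclei were kept, with medians of 2643 to 3709 UMIs. Pairs of libraries shared 5 to 32 cell barcodes, at most 0.474% of the smaller library. Classes were rebuilt from marker genes with the 3 genes left out of the clustering, and 13 classes with at least 50 nuclei in every library were compared. Of these, 11 carry a cell type name from their markers, and the clusters led by Enpp6 and Anln and by Vwc2l and Tshz2 go by their leading genes, although the former raised 8 of 8 oligodendrocyte markers. TG_PS19 stood apart from the rest in 2 ways. It held 648 of 708 unnamed nuclei led by Prl and Ttr, and its pool mixed sexes: 24.7% of its nuclei had Y-linked UMIs without Xist and 49.5% had Xist UMIs without Y-linked ones, whereas at most 0.239% of nuclei in the other libraries had Xist alone. WT alone held a further unnamed cluster of 281 nuclei. WT and TG_PS19 are lone libraries whose spread is assumed to be that of the PS19 pair, and the labels do not say whether that pair came from separate animals, so p-values measure only the spread between these samples.

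MAPT was read in neurons and in the named classes of the oligodendrocyte lineage. It was scarce in astrocytes, microglia, vascular cells and the oligodendrocyte-like Enpp6/Anln-led cluster. In WT no MAPT UMI was found among 42828227 UMIs, a count that allows up to 0.0701 CPM. Over all nuclei MAPT was at 17.8 CPM in PS19 replicate 1, 18.6 in replicate 2 and 12.9 in TG_PS19. Over all neurons it was at 26.8, 25.1 and 17.1 CPM in the same order. Every transgenic library thus lay far above the limit set by WT, and TG_PS19 lay below both PS19 libraries.

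Dentate granule neurons, the principal cells of the dentate gyrus, had 25.6, 28.2 and 18.3 MAPT CPM in PS19 replicate 1, PS19 replicate 2 and TG_PS19, from 112, 169 and 151 UMIs. Relative to a floor of 3 counts in the WT class this was at least 96.3-fold, 106-fold and 69.0-fold higher than in WT. CA1 pyramidal neurons had 33.6, 23.2 and 17.2 CPM, at least 49.6-fold, 34.3-fold and 25.4-fold above the WT floor. WT lacks the transgene, so such folds restate the genotype. Their size depends on the WT depth of the class, with floors of 0.2652 CPM in dentate granule and 0.6775 CPM in CA1 pyramidal neurons. They therefore do not rank classes. In both classes the TG_PS19 value was the lowest of the 3. The highest class means were those of Cajal-Retzius neurons (35.8 ± 14.2 CPM, SD, n = 3 libraries) and of the Vwc2l/Tshz2-led cluster (35.5 ± 10.5). The former rested on 10, 6 and 8 UMIs. Inhibitory neurons were lowest among the tested neuron classes, with 12.1, 12.5 and 6.71 CPM.

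Among glia, oligodendrocyte precursors, the dividing progenitors of myelin-forming cells, were at the level of neurons with 21.7, 25.9 and 21.9 MAPT CPM. Oligodendrocytes had 16.6, 20.8 and 13.6 CPM, at least 29.8-fold, 37.3-fold and 24.4-fold above the WT floor. Astrocytes had 5.77, 4.81 and 1.68 CPM from 14, 16 and 9 UMIs, and all 3 values lay below every value of the classes above. The Enpp6/Anln-led cluster had 3.61, 5.93 and 3.85 CPM. Fibroblasts, endothelial cells and microglia had between 1.41 and 4.79 CPM from 1 to 4 UMIs a library. Mural cells, which wrap small vessels, had no MAPT UMI in any library, which allowed up to 13.6, 10.9 and 12.0 CPM. Of classes too small to test, committed oligodendrocyte precursors had 16.4 to 18.2 CPM, choroid plexus had no MAPT UMI, and ependymal cells had 6, 2 and 0 UMIs.

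**Figure D1:**
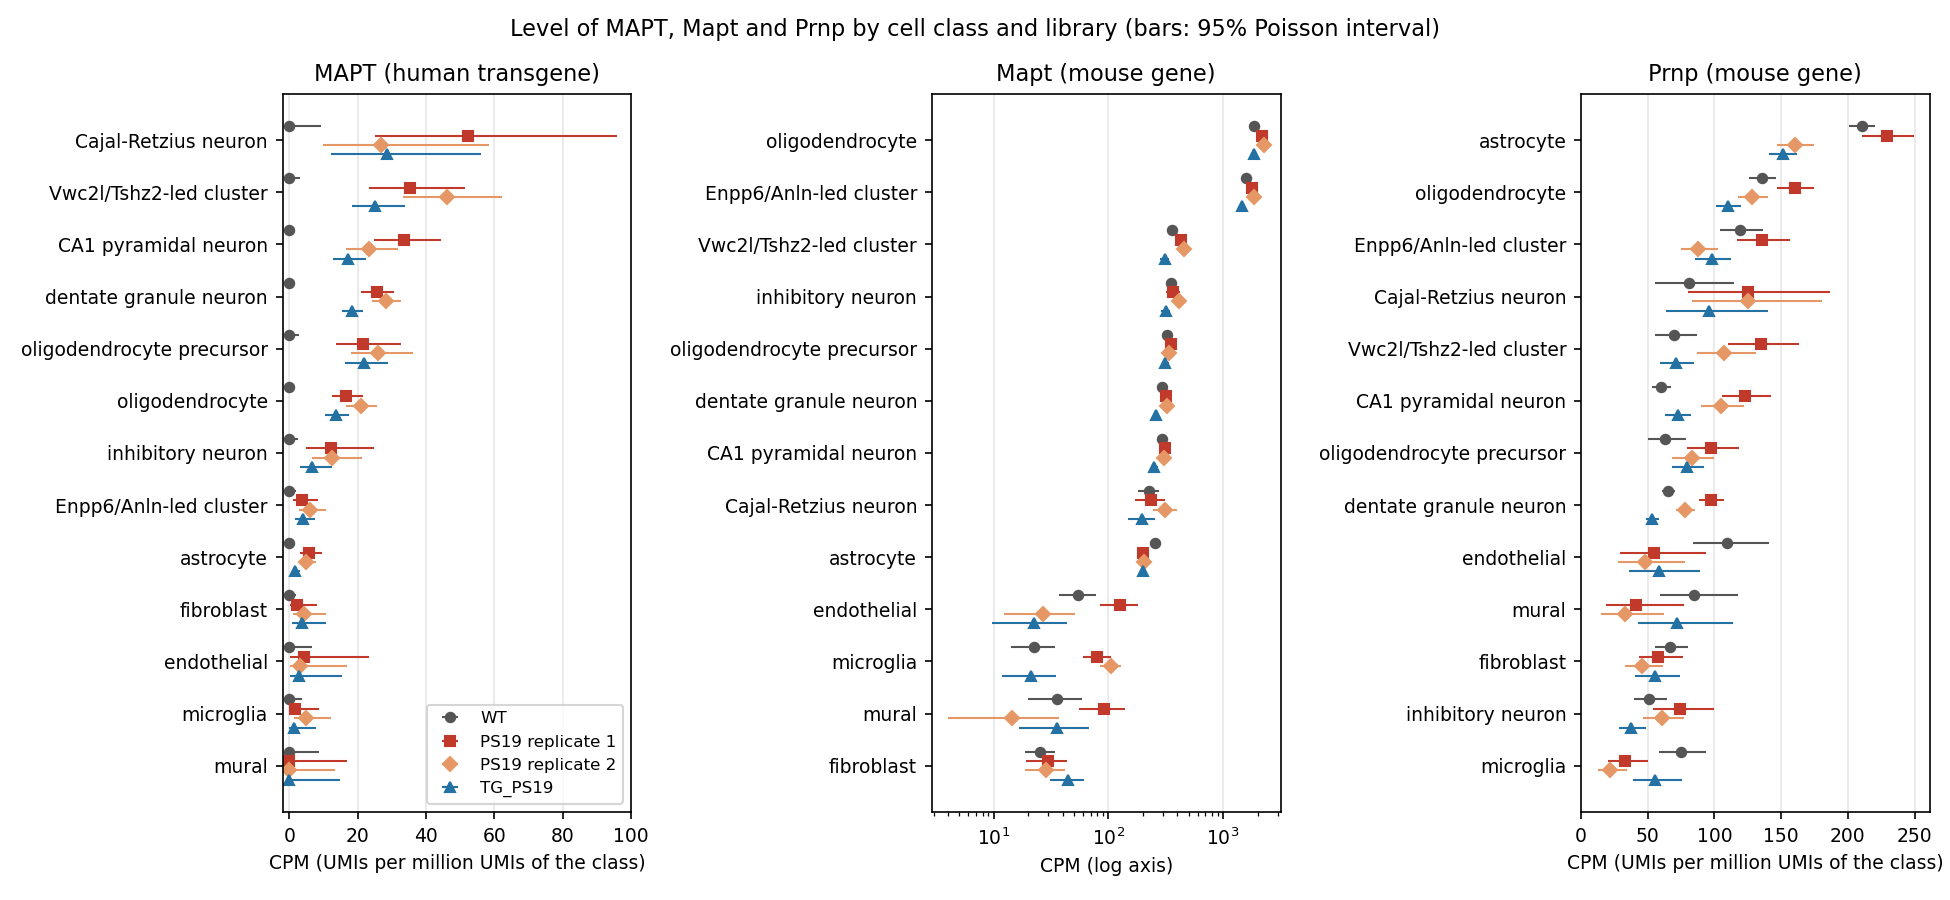
Level of MAPT, Mapt and Prnp in CPM (log axis for Mapt) in 13 cell classes, ordered by the mean level of each gene. Points are the 4 libraries and bars are exact 95% Poisson intervals, which cover counting error only. The order of classes differs between the genes: oligodendrocytes lead for Mapt and astrocytes for Prnp, while MAPT is highest in neuron classes.

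Most steps in this order were smaller than the spread. In 1 edgeR quasi-likelihood fit over the class and library sums, 1 of 12 neighbouring pairs differed for MAPT after Benjamini-Hochberg adjustment over 19805 genes. The spread in this fit rests on the PS19 pair, with classes of 1 library entered as separate values. The same 12 contrasts called 36.3% of all gene and pair combinations, and between 18.7% and 54.9% of genes each. The pair was oligodendrocytes above inhibitory neurons, by 1.00 in log2 units (SE 0.306, edgeR adjusted p = 0.00274, in the contrast with 54.9%). For the step from dentate granule neurons down to oligodendrocyte precursors the difference was 0.12, with a 95% interval from -0.25 to 0.49. Library ranges overlapped in 8 of the 12 pairs.

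The share of nuclei with a MAPT UMI followed depth as well as level. In CA1 pyramidal neurons it was 40.2% (37 of 92), 30.8% (28 of 91) and 20.7% (46 of 222), at medians of 12698 to 17193 UMIs per nucleus. In dentate granule neurons 19.0%, 24.1% and 13.5% of nuclei had a UMI. Oligodendrocytes, with medians of 1908 to 2878 UMIs, had 3.81%, 5.79% and 2.67%. Microglia, a class of another lineage that should lack neuronal transcripts, gave 0.383%, 1.37% and 0.246% (1 of 261, 4 of 292 and 1 of 406 nuclei), and astrocytes 2.27%, 2.15% and 0.546% at medians of 3066 to 4508 UMIs. With each nucleus thinned to 1000 UMIs, the shares were 2.07%, 3.08% and 1.31% in dentate granule neurons, 1.60%, 2.50% and 1.36% in oligodendrocytes, 0.488%, 0.432% and 0.0613% in astrocytes and 0 in microglia. At equal depth oligodendrocytes therefore lay close to dentate granule neurons, and astrocytes below both. Free RNA in droplets adds UMIs to every class, and the astrocyte share in TG_PS19 lay within the range of microglia.

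Prnp had another order. Astrocytes, which support synapses and vessels, had the highest level with 210.6, 229.6, 160.4 and 151.4 CPM in WT, PS19 replicates 1 and 2, and TG_PS19. Oligodendrocytes followed with 135.8, 160.3, 128.5 and 110.2 CPM. Dentate granule neurons had 65.5, 97.4, 77.8 and 53.3 CPM, and CA1 pyramidal neurons 60.1, 122.6, 105.1 and 72.3. Every astrocyte value lay above every value of both neuron classes. Microglia had 74.8, 33.1, 21.6 and 55.2 CPM, with the PS19 libraries below the other 2. Astrocytes exceeded oligodendrocytes by 0.41 in log2 units (SE 0.0818, edgeR adjusted p = 1.51e-06, in a contrast that called 58.8% of genes). Of the 12 neighbouring pairs 5 differed, in contrasts that called 8.85% to 58.8% of genes and 38.2% over all 12, and library ranges overlapped in all 12.

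Mapt was highest where myelin is made. Oligodendrocytes had 1874, 2201, 2259 and 1877 CPM in WT, PS19 replicates 1 and 2, and TG_PS19, and the Enpp6/Anln-led cluster 1594, 1788, 1867 and 1464. Dentate granule neurons had 292.5, 317.5, 324.5 and 261.6 CPM, and astrocytes 253.9, 199.9, 203.3 and 198.6. Fibroblasts were lowest by mean, between 25.4 and 44.2 CPM. The 2 PS19 values lay above WT and TG_PS19 in oligodendrocytes and dentate granule neurons and below WT in astrocytes. The drop from the Enpp6/Anln-led cluster to the Vwc2l/Tshz2-led cluster was 2.14 in log2 units (SE 0.0946, edgeR adjusted p = 3.37e-112), and 4 of 12 neighbouring pairs differed, in contrasts that called 8.85% to 53.8% of genes and 34.0% over all 12. Library ranges overlapped in 9 of the 12. As the 3 genes differ in length and in how introns can be counted, their levels are not set against each other.

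The transgene did not keep 1 ratio to Prnp across classes. In neurons as a whole there were 26.8, 31.3 and 29.7 MAPT UMIs per 100 Prnp UMIs in PS19 replicate 1, PS19 replicate 2 and TG_PS19, and the 3 counting intervals overlapped (22.8 to 31.4, 27.1 to 36.1 and 25.7 to 34.2). CA1 pyramidal neurons had 24.4 ± 2.70 (SD, n = 3 libraries), dentate granule neurons 32.3 ± 5.29 and oligodendrocyte precursors 27.0 ± 4.51. Inhibitory neurons had 18.3 ± 2.20, the Vwc2l/Tshz2-led cluster 34.8 ± 8.33 and Cajal-Retzius neurons 30.9 ± 10.2. Single libraries of these 6 classes ran from 16.3 in inhibitory neurons to 42.9 in the Vwc2l/Tshz2-led cluster.

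In the other 7 tested classes the mean ratio was lower than in any of these 6. Oligodendrocytes had 10.4, 16.2 and 12.4 MAPT UMIs per 100 Prnp UMIs. Astrocytes had 2.51, 3.0 and 1.11, below the lowest neuron value in every library. The Enpp6/Anln-led cluster had 2.66, 6.75 and 3.92, and mural cells 0. The ratios in fibroblasts, endothelial cells and microglia, between 2.56 and 22.2, rested on 1 to 4 MAPT UMIs. Only the change of this ratio between classes is read here, since its size depends on which part of each transcript is counted.

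**Figure D2:**
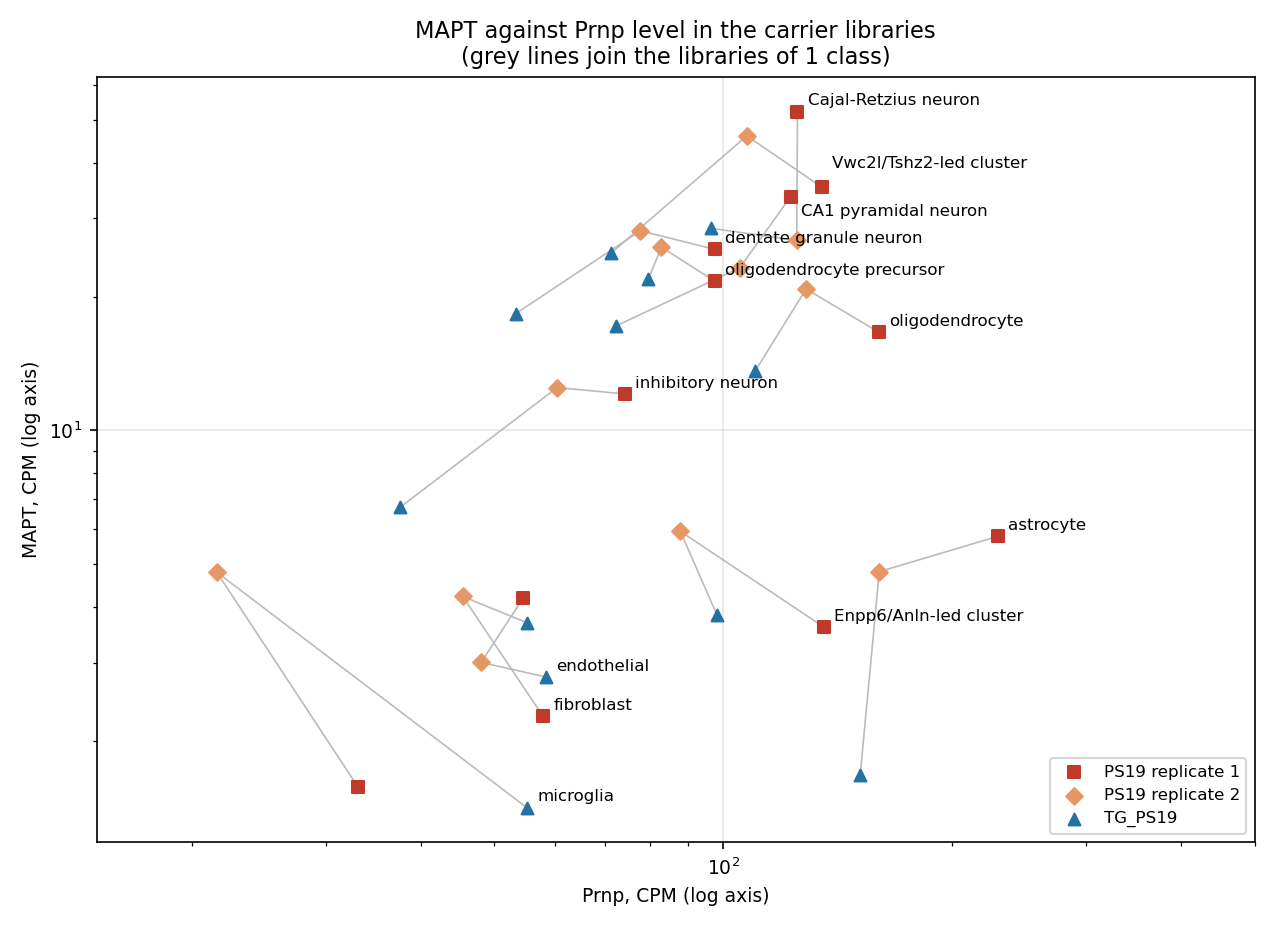
MAPT level against Prnp level (both in CPM, log axes) in the 3 transgenic libraries, with 1 point per class and library and grey lines joining the libraries of 1 class. Mural cells, with 0 MAPT, are not drawn. Neurons and oligodendrocyte precursors form an upper band, and astrocytes combine the highest Prnp level with 1.68 to 5.77 MAPT CPM.

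The departures were tested in the same fit, on pairs of classes chosen after their values had been seen. Dentate granule neurons exceeded astrocytes in MAPT by 3.02 (log2, SE 0.238, edgeR adjusted p = 4.06e-36, 61.7% of genes called) and lay below them in Prnp by -1.32 (SE 0.0830, adjusted p = 4.56e-56, 67.1% called). Oligodendrocyte precursors exceeded astrocytes in MAPT by 2.91 (SE 0.294, adjusted p = 5.53e-22, 41.6% called), with a Prnp difference of -1.30 (45.7% called). The transgene and Prnp therefore differed between these classes in opposite directions. Between dentate granule and inhibitory neurons they differed in the same direction, MAPT by 1.51 (SE 0.279, edgeR adjusted p = 4.68e-07, 33.6% called) and Prnp by 0.62 (adjusted p = 3.15e-06, 39.0% called), while the Mapt difference was -0.07 (adjusted p = 0.643). Against oligodendrocytes, dentate granule neurons had more MAPT by 0.51 (SE 0.161, edgeR adjusted p = 0.00276, 63.2% called), less Prnp by -0.91 (68.0% called) and less Mapt by -2.74. Astrocytes and microglia, which differed in Prnp by 2.33 (SE 0.129, edgeR adjusted p = 3.68e-72, 54.0% called), were not told apart in MAPT (0.83, SE 0.791, adjusted p = 0.420). With so many genes called in each contrast, a call by itself says little about these 3.

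Oligodendrocytes were not uniform in MAPT. The cluster led by 7630403G23Rik, Slc13a1, Bfsp2 and Opalin, the last a membrane protein of myelin, had 25.6, 31.9 and 27.3 MAPT CPM in PS19 replicates 1 and 2 and TG_PS19, from 35, 53 and 33 UMIs. The cluster led by C030029H02Rik, Mog, Car2 and Aspa, which includes genes of mature myelin, had 11.6, 10.8 and 6.92 CPM. The cluster led by 9330111N05Rik and Fbxw15 had 9.72, 14.9 and 10.4 CPM. The Enpp6/Anln-led cluster lay lowest with 3.61 to 5.93 CPM. The order of the first and last held in all 3 libraries, and the first did not overlap with any other cluster.

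Across these 4 clusters the highest level was 7.1, 5.38 and 7.1 times the lowest for MAPT in the 3 libraries. For Prnp the same ratio was 1.5, 1.69 and 1.22, and for Mapt 1.26, 1.23 and 1.32. In a fit over the oligodendrocyte clusters, the Opalin-holding cluster exceeded the Mog-holding cluster in MAPT by 1.62 (log2, SE 0.301, edgeR adjusted p = 1.39e-04, in a contrast that called 6.67% of genes). The Prnp difference between the same clusters was 0.11 (SE 0.0934, adjusted p = 0.659), and the Mapt difference 0.03. Against the Enpp6/Anln-led cluster the MAPT difference was 2.63 (SE 0.311, edgeR adjusted p = 4.69e-09, 17.5% called), beside 0.33 for Prnp (adjusted p = 0.00620, 19.8% called) and 0.27 for Mapt. MAPT thus had the widest ratio among these clusters in each of the 3 libraries. These clusters hold the same libraries, so they are not further replicates.

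**Figure D3:**
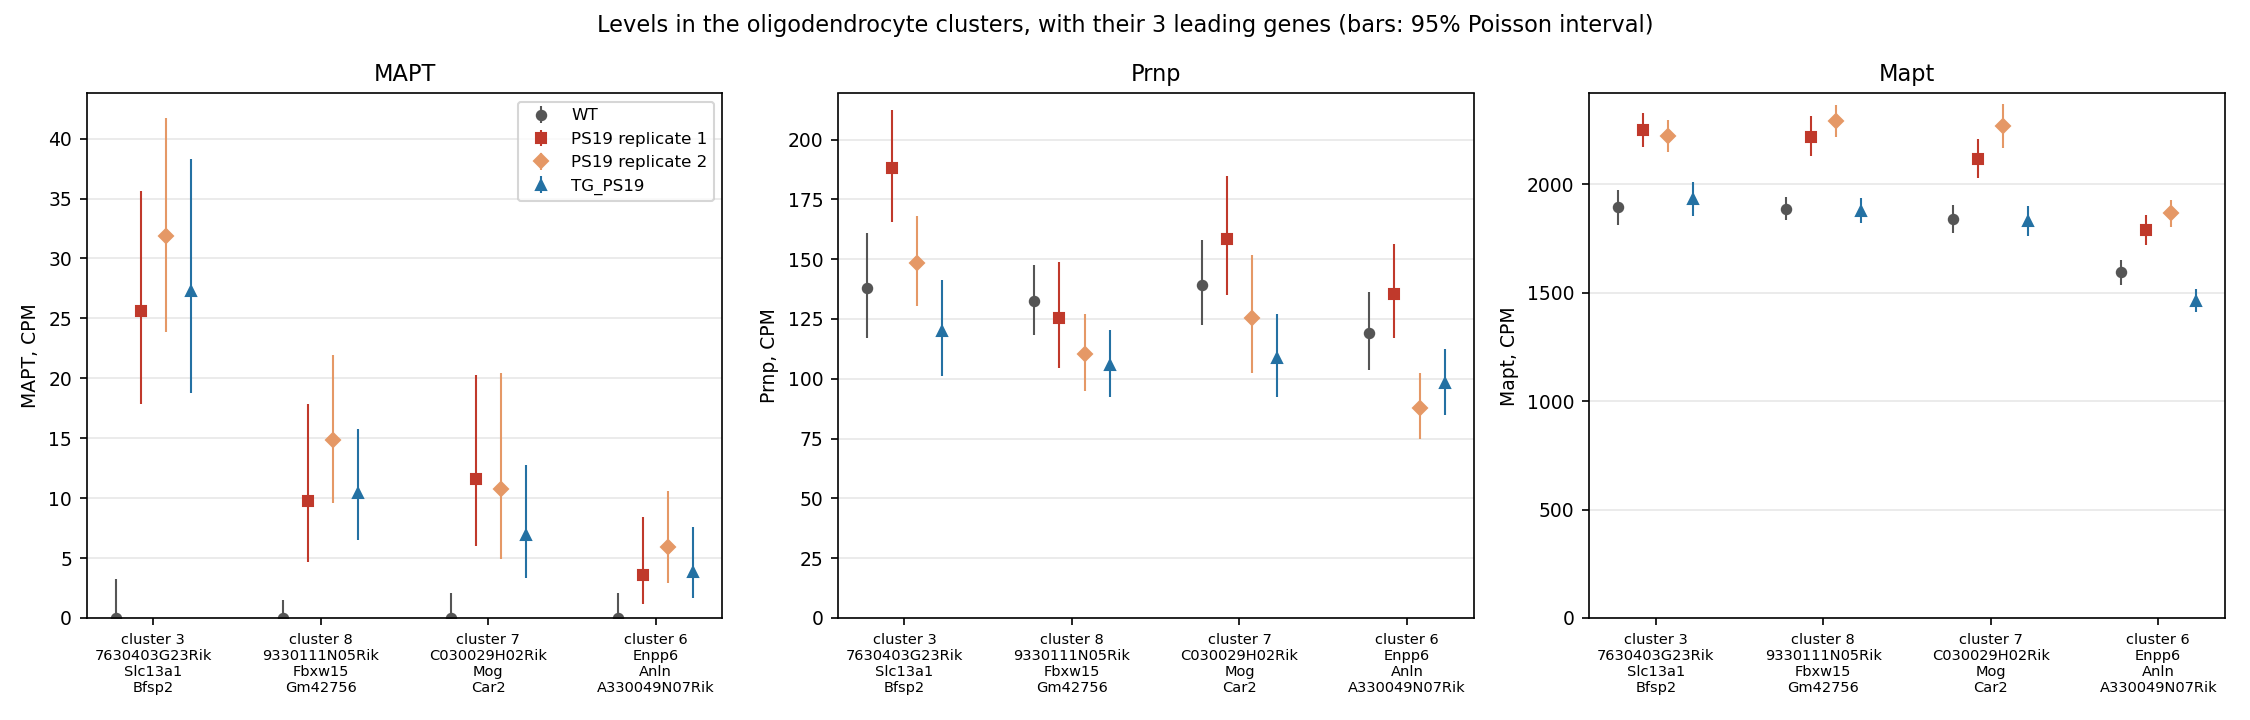
MAPT, Prnp and Mapt levels (CPM, axes from 0) in 4 clusters of oligodendrocyte-like nuclei, each named with its 3 leading genes. Points are the 4 libraries and bars are exact 95% Poisson intervals. MAPT falls from 25.6 to 31.9 CPM in cluster 3 to 3.61 to 5.93 CPM in cluster 6 of the transgenic libraries, while Mapt stays between 1464 and 2290 CPM in all clusters.

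Astrocytes also divided in 2 large clusters. The one led by Myoc and Gfap, a filament protein that rises in reactive astrocytes, had 9.47, 8.67 and 6.59 MAPT CPM from 9, 11 and 2 UMIs. The one led by Rorb and Slc1a2, a glutamate transporter, had 3.62, 2.11 and 1.47 CPM from 5, 4 and 7 UMIs. Values of the former were higher in every library, but the fitted difference of 1.72 (log2) did not pass (SE 0.973, edgeR adjusted p = 0.257, 16.5% of genes called). Prnp differed by -0.25 (adjusted p = 0.0543).

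Against WT, the PS19 libraries showed Prnp higher in CA1 pyramidal and dentate granule neurons and lower in microglia. Over the 3 genes and 13 classes 39 pairs were possible and 35 passed the filter on low counts, the missing ones being MAPT in endothelial cells, fibroblasts, microglia and mural cells. Of the 35, 10 were called in PS19 against WT by edgeR (9 higher, 1 lower), where 2.77% of all class and gene pairs were called (1.31% higher, 1.46% lower). MAPT made up 6 of the 10 calls, but it is absent from WT and passed the filter only through the transgenic libraries, so that its calls restate the genotype.

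In CA1 pyramidal neurons Prnp rose by 0.86 in log2 units in PS19 (SE 0.178, edgeR adjusted p = 5.85e-04), a class where 0.777% of genes were called. In dentate granule neurons it rose by 0.43 (SE 0.116, adjusted p = 0.0118, 3.07% called). Both PS19 libraries lay above WT and TG_PS19 in these classes. The dentate value was 0.28 without PS19 replicate 1 and 0.57 without replicate 2, neither of which can be tested. Neither neuronal call held with called doublets kept (edgeR adjusted p = 0.0819 and 0.429) or with DESeq2 (adjusted p = 1 and 0.983). In microglia Prnp fell by 1.49 (SE 0.320, adjusted p = 6.03e-04, 8.75% called), which did not hold with DESeq2 either (-1.47, adjusted p = 0.991). In the Vwc2l/Tshz2-led cluster the difference was 0.75 (SE 0.247, adjusted p = 0.193) and in oligodendrocyte precursors 0.54 (SE 0.227, adjusted p = 0.598). In oligodendrocytes and astrocytes, the 2 classes richest in Prnp, it was 0.12 (95% interval -0.15 to 0.38) and -0.15 (-0.41 to 0.11).

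The fitted Prnp difference was positive in the classes with more MAPT. All 7 classes with at least 10 MAPT CPM in PS19 had a positive fitted Prnp difference, and all 6 classes below 10 CPM a negative one, a limit chosen after the values had been seen. Over the 13 classes the Pearson correlation of the Prnp difference with the MAPT level was 0.873 and Spearman's was 0.956. This is a description of classes that share their libraries, the WT reference and depth. Taken alone, PS19 replicate 1 gave 0.837 and PS19 replicate 2 gave 0.860. The split was less clean in single libraries, with 4 of 6 classes below 10 CPM negative in PS19 replicate 1 and 6 of 7 classes above it positive in PS19 replicate 2. In TG_PS19 Pearson's was 0.733 and Spearman's 0.588, and only 4 of 6 classes with at least 10 MAPT CPM lay above WT in Prnp there. Prnp of dentate granule neurons stood 31.9 and 12.3 CPM above WT in PS19 replicates 1 and 2 and 12.2 CPM below WT in TG_PS19 (a difference of -12.2), although TG_PS19 had 18.3 MAPT CPM. How much of the added Prnp signal came from transgene molecules with Prnp sequence was not tested, since the counts give no positions of reads.

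**Figure D4:**
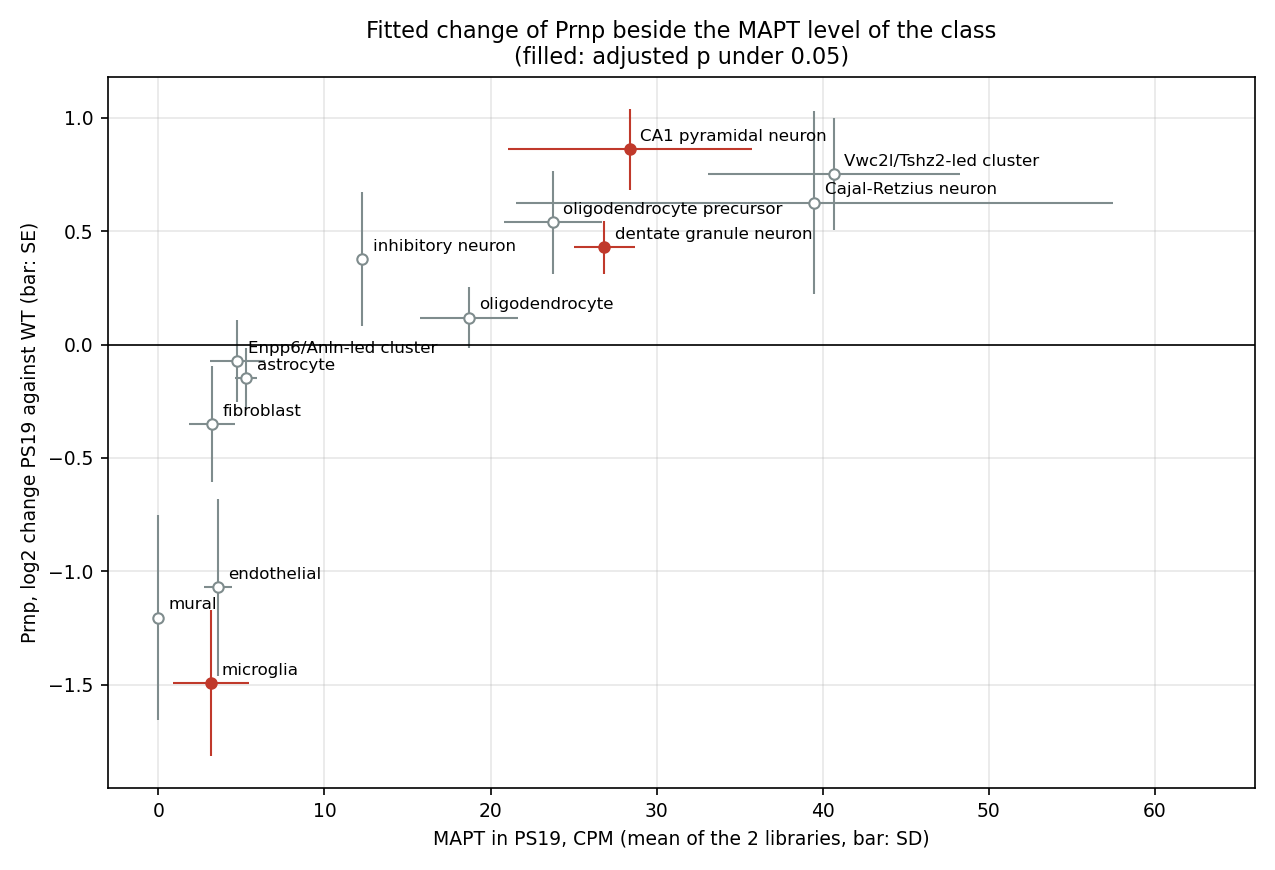
Fitted log2 change of Prnp in PS19 against WT (vertical axis, bars are SE) beside the mean MAPT level of the class in the 2 PS19 libraries (CPM, bars are SD) for 13 classes. Filled points passed an adjusted p of 0.05. Points to the right of 10 CPM lie above 0 and points to the left lie below 0.

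The change of Prnp in dentate granule neurons was set against the mean of all other classes, of which 4 had larger fitted values. These were CA1 pyramidal neurons (0.86), the Vwc2l/Tshz2-led cluster (0.75), Cajal-Retzius neurons (0.63) and oligodendrocyte precursors (0.54), while microglia (-1.49), mural cells (-1.20) and endothelial cells (-1.07) were lowest. The dentate change exceeded that mean by 0.56 (log2, SE 0.159, edgeR adjusted p = 0.0430 in a fit over all classes), a contrast that called 1.01% of genes. For Mapt the same difference was -0.14 (95% interval -0.46 to 0.18). MAPT could not be fitted in this contrast, since it is 0 in WT and in mural cells. The Prnp call did not hold with library totals as scaling (0.50, edgeR adjusted p = 0.133), with called doublets kept (0.45, adjusted p = 0.157) or at the finer clustering (0.49, adjusted p = 0.226).

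Between TG_PS19 and PS19, Prnp was lower in dentate granule neurons while no MAPT difference passed the test. Of the 35 pairs 3 were called for Prnp and Mapt, where 4.72% of all class and gene pairs were called. Prnp in dentate granule neurons fell by 0.61 in TG_PS19 (SE 0.123, edgeR adjusted p = 3.92e-05, 9.31% of genes called there). The call did not hold with doublets kept (-0.57, edgeR adjusted p = 0.178) or with DESeq2 (-0.61, adjusted p = 0.153). In CA1 pyramidal neurons the difference was -0.53 (SE 0.18, adjusted p = 0.0754) and in the Vwc2l/Tshz2-led cluster -0.66 (adjusted p = 0.102). The dentate change minus the mean of the other classes was -0.57 (SE 0.169, adjusted p = 0.191, 0.182% called), so that it was not shown to differ from them.

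MAPT was called in 0 of 9 tested classes by edgeR, with 3 at an unadjusted p under 0.05, and DESeq2 gave 0 at that limit. The fitted difference was below 0 in all 9. It was -0.46 in dentate granule neurons (95% interval -0.84 to -0.09, edgeR adjusted p = 0.111), -0.60 in CA1 pyramidal neurons (adjusted p = 0.377), -0.41 in oligodendrocytes (adjusted p = 0.407) and -0.05 in oligodendrocyte precursors (-0.68 to 0.58). The lowest value, -1.46, was that of astrocytes (95% interval -2.89 to -0.03, edgeR adjusted p = 0.232), where MAPT counts were low. The 9 share the same libraries and are not independent. With library totals as scaling the dentate MAPT difference was -0.56 and was called.

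The mixed pool of TG_PS19 bears on these values. In its dentate granule neurons, the 217 nuclei with Y-linked UMIs alone had 23.3 MAPT CPM from 45 UMIs, and the 669 with Xist UMIs alone had 15.8 from 86. Over all neurons these values were 20.9 and 14.7 CPM, and in CA1 pyramidal neurons 22.2 and 12.1. Prnp of dentate granule neurons was at 59.5 and 50.3 CPM. The MAPT counting intervals of the Y-linked and Xist nuclei overlapped in dentate granule neurons (17.0 to 31.1 and 12.6 to 19.5 CPM). They also overlapped in CA1 pyramidal neurons (14.2 to 33.0 and 6.90 to 19.6 CPM). SORL1 went the other way in dentate granule neurons, at 18.6 and 35.8 CPM, but was equal in CA1 pyramidal neurons, at 37.0 and 37.0 CPM. Astrocytes had 76.9 and 170.0 SORL1 CPM, and endothelial cells 93.2 (from 5 UMIs) and 631.5. In the PS19 libraries at most 0.127% of nuclei had Xist alone. Against them, the TG_PS19 nuclei with Y-linked UMIs gave a dentate Prnp difference of -0.47 (edgeR adjusted p = 0.0616), and those with Xist gave -0.68 (adjusted p = 1.47e-05), both alternatives to the comparison of all nuclei. In the latter the MAPT difference of -0.67 was called (adjusted p = 0.0256). Sex, animal and SORLA level cannot be told apart within this library.

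Against WT, TG_PS19 showed no call for Prnp or Mapt in any of the 26 class pairs tested by edgeR, where 1.88% of all class and gene pairs were called. At an unadjusted p under 0.05 edgeR gave 2 for Mapt and 1 for Prnp, the latter in astrocytes (-0.33), and DESeq2 gave 0 for both. Prnp in dentate granule neurons differed from WT by -0.18 (95% interval -0.44 to 0.09) and in CA1 pyramidal neurons by 0.33 (-0.07 to 0.72).

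Outside microglia, Mapt was called in no class in either comparison with PS19. In PS19 against WT its difference was 0.29 in oligodendrocytes (95% interval 0.03 to 0.54, edgeR adjusted p = 0.234), 0.16 in dentate granule neurons (-0.04 to 0.35) and -0.36 in astrocytes (-0.62 to -0.10, adjusted p = 0.0887). Of the 13 classes 11 had a positive value and 2 a negative one, and in TG_PS19 against PS19 11 of 13 were negative. At an unadjusted p under 0.05 edgeR gave 3 classes for Mapt in PS19 against WT and 4 in TG_PS19 against PS19, microglia included, and DESeq2 gave 2 and 1.

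Microglia, the resident macrophages of brain, gave calls for both mouse genes in opposite directions. Prnp is given above, and it was higher in TG_PS19 than in PS19 by 1.14 (SE 0.361, edgeR adjusted p = 0.0300, 9.25% called), with an adjusted p of 0.0660 where called doublets were kept. Mapt was at 22.5, 80.3, 105.4 and 21.2 CPM in WT, PS19 replicates 1 and 2, and TG_PS19. Its fitted difference was 2.04 in PS19 against WT (SE 0.333, edgeR adjusted p = 5.72e-06) and -2.04 in TG_PS19 against PS19 (adjusted p = 3.77e-05). With DESeq2 neither Mapt call held (adjusted p = 0.210 and 0.209), nor did the Prnp call between TG_PS19 and PS19 (1.12, adjusted p = 1.0).

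The Mapt signal sat in a few nuclei rich in oligodendrocyte markers. In PS19 replicate 1, 45 of 51 Mapt UMIs came from 15 nuclei with at least 5 oligodendrocyte marker UMIs, and in PS19 replicate 2, 86 of 88 came from 20 such nuclei. In the remaining nuclei Mapt was at 20.7, 10.3, 2.70 and 19.1 CPM in the order above, from 19, 6, 2 and 13 UMIs. Both PS19 libraries lay below WT, but the interval of PS19 replicate 1 (3.79 to 22.49 CPM) overlapped that of WT (12.45 to 32.29 CPM). Oligodendrocyte markers in these remaining nuclei were at 894.6, 532.0, 483.5 and 902.6 CPM, and their part in the Mapt values was not tested. The summed oligodendrocyte markers of all microglia were at 1056, 994, 1289 and 967 CPM, with all 8 markers detected in every library. With clusters that raise markers of 2 classes kept, which adds 67 WT nuclei of a microglia and oligodendrocyte mixture, the Mapt difference turned to -0.67 (edgeR adjusted p = 0.0144). The direction of Mapt in microglia therefore depends on which nuclei are counted.

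The Prnp difference did not rest on those nuclei, and was at 72.9, 31.0, 20.3 and 55.8 CPM without them. The kind of microglia also differed between the libraries. At a finer clustering, the cluster led by Siglech, a lectin of resting microglia, held 94.5% of microglia in WT and 95.8% in TG_PS19, but 20.3% and 16.8% in PS19 replicates 1 and 2. The cluster led by Ly86 and Fyb held the others. In the Siglech-led cluster Prnp was at 74.3 CPM in WT, 71.0 in PS19 replicate 1 (8 UMIs), 15.9 in PS19 replicate 2 (2 UMIs) and 54.6 in TG_PS19. In the Ly86/Fyb-led cluster it was at 82.3 (5 UMIs), 24.9, 22.6 and 68.2 CPM (2 UMIs). Too few UMIs were left in the smaller cluster of each library to separate the kind of microglia from the genotype, and its part in the difference was not tested.

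**Figure D5:**
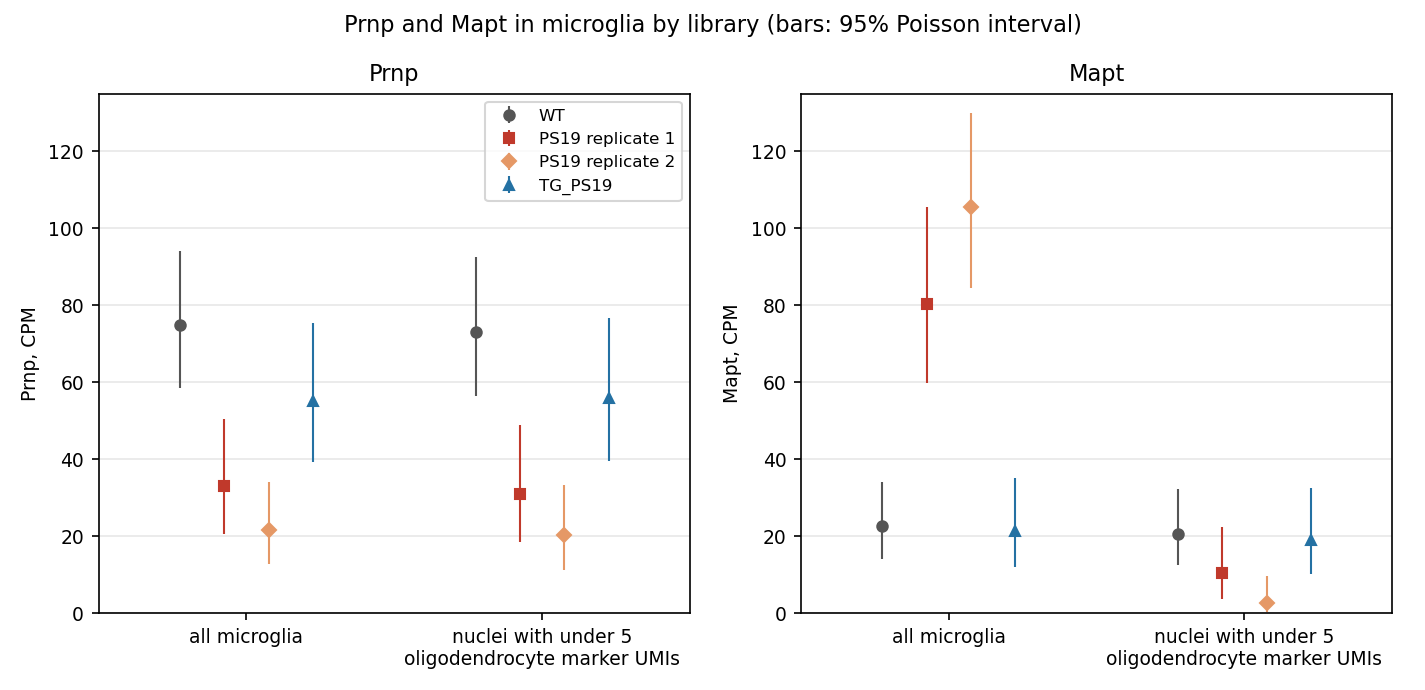
Prnp and Mapt levels (CPM, axes from 0) in all microglia and in microglia with under 5 oligodendrocyte marker UMIs, by library, with exact 95% Poisson intervals. Prnp stays lower in both PS19 libraries in either set, while the Mapt values of 80.3 and 105.4 CPM in PS19 fall to 10.3 and 2.70 CPM in the second set.

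The patterns most like each gene over classes were found by the Pearson correlation of log2(CPM + 10), which describes points that share libraries and depth. For MAPT, over 39 points and 8256 genes, these were Sh3gl2 (0.900) and Snap91 (0.859), both of synaptic vesicle endocytosis, Csmd2 (0.845), Bex2 (0.843) and Fam189a1 (0.841). Prnp ranked 1197 for MAPT (0.451) and Mapt ranked 1077 (0.484). For Mapt, over 52 points, Gm11659 (0.956), Nfasc (0.938), an adhesion protein of the axon at nodes, Acot7 (0.932), Ncam1 (0.922) and Tmem178b (0.920) led. For Prnp they were Gpm6b (0.775), a proteolipid of glia and neurons, Fdft1 (0.746), the squalene synthase, Amer2 (0.724), 4930402H24Rik (0.722) and 4930488L21Rik (0.705). Within PS19 replicate 1, PS19 replicate 2 and TG_PS19 the MAPT and Prnp correlation over 13 classes was 0.535, 0.590 and 0.066.

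Of 26 neuronal microtubule genes, the wider group to which tau belongs, 283 class and gene pairs were tested. In PS19 against WT 7 were higher and 6 lower (4.59%, beside 2.77% over all pairs). Map7d2, a microtubule-associated protein that activates kinesin, rose in oligodendrocytes by 1.05 (log2, SE 0.144, edgeR adjusted p = 6.33e-07), from 55.6 CPM in WT to 118.1 and 107.7 in PS19, and was at 101.0 in TG_PS19. It also rose in the Enpp6/Anln-led cluster (0.96) and in astrocytes (0.49). Stmn4, a stathmin that binds tubulin, rose in dentate granule neurons by 0.81 (SE 0.152, adjusted p = 2.17e-05), from 24.3 to 44.9 and 39.5 CPM, and Map6, which stabilises microtubules, by 0.39. Tubb3, a neuronal tubulin, rose in oligodendrocytes by 1.46 (adjusted p = 0.00964). Mapre2, an end-binding protein, fell in oligodendrocytes and astrocytes by 0.49 and 0.39, and Map2, the dendritic relative of tau, fell in astrocytes by 0.39. In dentate granule neurons the median of the 26 genes was 0.11, beside 0.00 over all genes tested.

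In TG_PS19 against PS19 the same list had 5 pairs higher and 8 lower (4.59%, beside 4.72% over all pairs). In dentate granule neurons Stmn4, Stmn1, Tubb2a and Tuba1a fell by 0.77, 0.66, 0.65 and 0.62 and none rose, and the list median was -0.17 beside -0.01 over all genes. Stmn4 there was at 23.0 CPM in TG_PS19, close to the 24.3 CPM of WT. Tubb3 fell in oligodendrocytes by 1.80 and in the Enpp6/Anln-led cluster by 1.81. In astrocytes Map2, Dclk1 and Mapre2 were higher by 0.50, 0.43 and 0.42. Map2 and Mapre2 in astrocytes were thus lower in PS19 than in both other groups, in comparisons that share the PS19 libraries.

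Of 18 genes of the prion protein family, its reported binding partners and proteases, 177 class and gene pairs were tested. In PS19 against WT 3 were higher and 5 lower (4.52%, beside 2.77%). Grm5, the glutamate receptor mGluR5 that has been described as a partner of the prion protein, rose in astrocytes by 0.75 (SE 0.137, edgeR adjusted p = 3.98e-06), from 139.0 CPM in WT to 229.6 and 244.8 in PS19. The same gene fell in oligodendrocytes by 1.12, in the Enpp6/Anln-led cluster by 1.97 and in fibroblasts by 1.53. Astrocyte markers moved with it in the first and second of these. Their sum over 8 genes was at 515.0, 244.0, 192.8 and 388.1 CPM in oligodendrocytes of WT, PS19 replicates 1 and 2, and TG_PS19, beside Grm5 at 45.2, 26.5, 14.8 and 33.5. In the Enpp6/Anln-led cluster the sum was at 550.3, 293.6, 288.7 and 412.9 CPM, beside Grm5 at 38.6, 7.21, 11.3 and 24.0. In astrocytes of WT the sum was at 13879 CPM beside Grm5 at 139.0, and dentate granule neurons of WT had Grm5 at 2194 CPM. The part of RNA from astrocytes or from other classes in the Grm5 difference was not tested. In fibroblasts the sum lay between 2084 and 2336 CPM. Adgrg6, the receptor on Schwann cells for a prion protein fragment, rose in astrocytes by 1.18 (adjusted p = 0.00332). In microglia Aplp2, a relative of the amyloid precursor protein, was higher by 0.71 and Lrp1, an endocytic receptor, lower by 0.49.

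In TG_PS19 against PS19 the list had 13 pairs higher and 7 lower (11.3%, beside 4.72% over all pairs). Lrrc4, a synaptic adhesion protein, made up 8 of the 13. It was higher by 0.63 to 1.44 in CA1 pyramidal, dentate granule and Cajal-Retzius neurons, oligodendrocytes, the Enpp6/Anln-led cluster, astrocytes, fibroblasts and microglia. In dentate granule neurons it was at 169.6, 154.9, 138.1 and 214.3 CPM (0.65, SE 0.102, edgeR adjusted p = 2.30e-08). Aplp1 fell in dentate granule neurons, oligodendrocytes and the Enpp6/Anln-led cluster by 0.52, 0.58 and 0.59. In PS19 replicate 1, PS19 replicate 2 and TG_PS19 it was at 341.2, 237.9 and 188.3 CPM in dentate granule neurons. The values were 1763, 1101 and 914.1 CPM in oligodendrocytes and 1394, 907.1 and 727.3 CPM in the Enpp6/Anln-led cluster. In each of these classes PS19 replicate 2 lay nearer to TG_PS19 than to PS19 replicate 1. Grm5 in astrocytes fell by 0.70, to 129.8 CPM, and Adgrg6 in astrocytes by 1.85. Grm5 was higher in the Enpp6/Anln-led cluster, oligodendrocytes and dentate granule neurons, by 1.39, 0.79 and 0.31. The astrocyte marker sums given above were also higher in TG_PS19 than in PS19 in the first and second of these. In microglia Aplp2 fell by 0.90 and Lrp1 was higher by 0.45. The list was chosen with earlier results known, and its share is not evidence of its own.

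Genes next to Prnp and Mapt on the chromosome were called at shares near those of all pairs. Of 46 pairs for 6 genes around Prnp, 1 was called in each of the 3 comparisons (2.17%, beside 2.77%, 4.72% and 1.88% over all pairs). It was Slc23a2, in microglia in PS19 against WT (0.68, edgeR adjusted p = 0.0132) and in TG_PS19 against PS19 (-0.77), and in fibroblasts in TG_PS19 against WT (-0.75, adjusted p = 0.00861). Of 57 pairs for 8 genes around Mapt, 2 were called in TG_PS19 against PS19 (3.51%, beside 4.72%), Crhr1 in dentate granule neurons (0.83) and Arf2 in oligodendrocytes (-1.23).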

How the data were processed

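UMI counts per gene and nucleus were deposited by the authors as raw whole numbers, made with Cell Ranger 7.1.0 on build GRCm38, per the submitters' processing notes. Whether introns or strand entered the counting is not given in the sources used here. The 3 genes, the gene lists and the tests were chosen with earlier results of these data known. Nuclei with at least 500 UMIs, 300 genes and at most 5% mitochondrial UMIs were kept, and doublets called by Scrublet at its automatic threshold were left out (903 WT, 146 and 148 PS19, 590 TG_PS19). The counts were scaled, log-transformed and clustered in Python 3.11.15 with scanpy 1.11.5 (3000 variable genes without MAPT, Mapt, Prnp, SORL1, sex-linked and mitochondrial genes, 40 components, 15 neighbours, resolution 1.0). Clusters were named from 17 marker lists by how many list members stood out (log2 fold 1 or more over the remaining nuclei with a pseudocount of 10 CPM, detected in 10% of nuclei). A name took 4 such members, or 3 where these made up 50% of a list. Clusters that raised the markers of 2 classes were set aside as mixed, a rule set after the data had been seen. These were 11 mural and dentate granule nuclei, 123 microglia and T cell nuclei, and 76 microglia and oligodendrocyte nuclei.

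Counts were summed per class and library and tested with edgeR 4.0.16 in R 4.3.3 (filterByExpr, TMM scaling, quasi-likelihood F-test, Benjamini-Hochberg over all genes of a class, threshold 0.05). The spread in a class fit rests on the PS19 pair alone (1 residual degree of freedom). The fit over all classes has 12, over 19805 genes, with 1 common spread for all genes after moderation. These 12 also come from the PS19 pair, since WT and TG_PS19 have 1 library in each class. Classes of 1 library enter that fit as separate values, so its small p-values do not measure the spread between animals. DESeq2 1.42.0 was an alternative. Other alternatives were RLE scaling, library totals, no filter on low counts, leaving out each PS19 library, doublets kept, at least 1000 UMIs, resolution 2.0, thinning to 1000 UMIs, TG_PS19 nuclei with Y-linked UMIs alone and, chosen after seeing the data, mixed nuclei kept and TG_PS19 nuclei with Xist UMIs alone. The tests were checked on simulated data.

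Named genes were MAPT, Mapt and Prnp, the 5 genes most alike to each by Pearson's r among genes with a mean of at least 20 CPM, and list members called in a class, at most 6 by size, of which 1 is counted but not reported here by name. Of the mouse identifiers 54349 were in GENCODE M21. RefSeq gave the Prnp window. Intervals are exact 95% Poisson or binomial ones and floors stand for 3 counts, and both cover counting error only.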

Additional observations from a re-analysis of the deposited data

Results flagged for a closer look

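The change of Prnp in PS19 against WT differed between cell classes. In dentate granule neurons it exceeded the mean change of the other 12 classes by 0.56 in log2 units (SE 0.159, edgeR adjusted p = 0.0430, 1.01% of genes called). The fitted change was larger in 4 of these 12, namely CA1 pyramidal neurons, the Vwc2l/Tshz2-led cluster, Cajal-Retzius neurons and oligodendrocyte precursors, and lowest in microglia, mural and endothelial cells. The call did not hold with library totals, with doublets kept or at resolution 2.0. Dentate Prnp was higher than in WT in both PS19 libraries.

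MAPT UMIs also appeared in nuclei that no comparison used. The unnamed cluster led by Prl, a pituitary hormone, and Ttr, a carrier protein of choroid plexus, held 648 TG_PS19 nuclei with 6 MAPT UMIs, or 6.73 CPM (95% Poisson interval 2.47 to 14.6). The WT nuclei of this cluster, 50 in number, held 0, which allows up to 33.0 CPM. In the TG_PS19 nuclei Prnp was at 256.8 CPM and Mapt at 543.8 CPM.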

How the results depend on the processing

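No paired analysis was possible because only the PS19 group carries replicate numbers. Without a PS19 library no residual degree of freedom is left, so those settings gave values without tests. The 10 calls in PS19 against WT became 2 with DESeq2 and 4 after thinning. The 3 calls in TG_PS19 against PS19 became 7 with library totals, 5 with the Xist nuclei alone, 1 after thinning, and 0 with DESeq2 or with doublets kept (DESeq2 gave 1 for Mapt and 1 for Prnp at an unadjusted p under 0.05). The 0 calls for Prnp and Mapt in TG_PS19 against WT became 1 with library totals and 1 with mixed nuclei kept. The cause was not tested.

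The dentate difference in the Prnp change (0.56) was 0.50 with library totals, 0.45 with doublets kept and 0.49 at resolution 2.0, none called, and 0.52 to 0.55 without a PS19 library. For TG_PS19 against PS19 (-0.57) it was -0.54 and called with RLE scaling (edgeR adjusted p = 0.0370), and for TG_PS19 against WT (-0.01) it was 0.01 at resolution 2.0. For Mapt, -0.14 turned to 0.12 and 0.22 to -0.22 with doublets kept, and the values ran from -0.26 to 0.05 and from 0.00 to 0.34 without a PS19 library. The astrocyte ratio of MAPT to Prnp, 2.76 per 100 over the PS19 libraries, was 3.34 with doublets kept. Shares of nuclei with MAPT in PS19 went from 21.5% to 2.57% in dentate granule neurons and from 2.21% to 0.460% in astrocytes after thinning, the latter to 2.63% with doublets kept.

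Single values turned sign as follows. Mapt in microglia was -0.67 with mixed nuclei kept and -0.30 with doublets kept in PS19 against WT, and 0.43 with doublets kept in TG_PS19 against PS19. Between the latter groups Mapt in astrocytes was -0.02 with library totals and -0.08 after thinning, Prnp in oligodendrocyte precursors 0.02 after thinning, and MAPT 0.20 in Cajal-Retzius neurons and 0.01 in oligodendrocyte precursors with the Y-linked nuclei alone, and none of these 5 was called. Of the 7 called pairs of Mapt and Prnp, all 7 kept their call with library totals, at 1000 UMIs and at resolution 2.0, while DESeq2 kept none. MAPT counts under 20 UMIs in vascular cells, microglia and astrocytes limit those levels.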
